A study of Mus musculus with 16 samples.

Results

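The genes described here are 35 interferon-stimulated genes, the set of transcripts that a cell raises when it senses type I interferon. They were picked by symbol from a list of such genes, made with earlier results of these data known, among the 24420 features of each deposited table, and all 35 symbols were found in both tables. The values come from 16 mouse libraries of strain C57B6 in 4 groups. The first experiment compared primary enterocytes of 4 WT libraries with those of 5 libraries labelled Mfge8 KO. The second compared small intestinal RNA of 4 WT libraries with that of 3 libraries labelled Cd36 KO. Mfge8 encodes a secreted glycoprotein that binds integrins and phosphatidylserine, Cd36 encodes a membrane protein that takes up long-chain fatty acids, and the groups are called Mfge8 null and Cd36 null here, after the sample titles. Age, treatment, the construction of the null alleles and whether animals were pooled are not given in the sources used here.

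Type I interferons are secreted proteins that bind the IFNAR1/IFNAR2 receptor, whose kinases JAK1 and TYK2 phosphorylate STAT2. With IRF9 it forms part of a complex that binds the interferon-stimulated response element (ISRE) in the promoters of target genes. Type III interferons act through a different receptor, IFNLR1 with IL10RB, onto the same complex, and the intestinal epithelium is known to answer them. The products of the target genes recognise viral nucleic acid, block its translation or degrade it, and some, such as USP18, dampen the signal.

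Depth was 1618369 to 2459812 reads per library in enterocytes and 850297 to 1000694 in the intestine. The targeted genes went with their labels. Mfge8 was at 14.8 ± 6.70 (SD, n = 4) normalised reads in WT and 3.45 ± 2.43 (SD, n = 5) in Mfge8 null enterocytes, and Cd36 in the intestine was at 111 to 116 in WT and 6.48 to 16 in Cd36 null libraries. Over genes with at least 20 reads in a pair, the chi-square per degree of freedom between intestine libraries of the same genotype was 0.987 to 1.12 in 9 pairs, about what counting alone gives, against 2.14 to 2.27 in 12 pairs of different genotype and 6.26 to 20.2 in 16 pairs of enterocyte libraries of the same genotype. Since counting noise alone covers most of what separates the intestine libraries of a genotype, each genotype enters as 1 sample there, and that comparison is between 2 preparations, with no test and no replicate check of the genotype. All 7 intestine libraries held reads of both Xist and the Y-linked Ddx3y. The Xist values did not overlap between genotypes (WT 441 to 498, Cd36 null 319 to 360.0), and those of Ddx3y did (40 to 47.8 and 40.5 to 48.1). No enterocyte library held a read of Xist, while Ddx3y was at 88.5 ± 14.3 (SD, n = 4) in WT and 66.2 ± 17.6 (SD, n = 5) in Mfge8 null enterocytes. Markers of stroma, endothelium and muscle were nearly absent from the libraries labelled intestine, with a sum of 23.1 to 36.4 normalised reads over 12 genes in WT and 16.3 to 17.6 in Cd36 null, and Cdh5 and Kdr at 0, while 14 enterocyte markers summed to 42753 to 45389.

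In the small intestine, many of the interferon-stimulated genes were higher in the Cd36 null than in the WT libraries. The signalling factors and the ADP-ribosylation genes had none that met the rule for a call. A gene was called when its mean log2(normalised reads + 1) differed by at least 1.5-fold and the libraries of the genotypes did not overlap, among genes with at least 5 normalised reads in at least 3 libraries. Of the 35 genes, 31 entered, and 14 were called higher and 0 lower, beside 2.61% of 9314 genes called higher and 3.17% called lower. Ifit2, Mx2 and Dhx58, among the 14, had fewer than 3 WT libraries at 5 or more. They entered only through their Cd36 null libraries, so their calls could only be higher and add no support to the count. Without the fold requirement, 19 had every Cd36 null library above every WT library and 0 the reverse, beside 8.61% and 7.91% of all genes. The median difference was 0.46 on the log2 scale, against -0.00208 over all genes, and 26 of 31 lay above zero. Ifit2, Mx2 and Dhx58 are also in the 19, the median and the 26, and add no support there either. Ifit1bl1, Xaf1 and Ifit3 differed most. For all 14 called genes the 95% exact interval of the ratio, which covers counting error only, lay above 1, and so it did for 218 of the 243 genes called higher in the whole table. The interval uses the reads that made the call, so it adds no separate support. With a minimum of 20 normalised reads, 11 of the 35 were called.

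The plot of the intestine values shows each gene by library. Low genes such as Mx2 and Dhx58 spread widely among the WT libraries, where a few reads decide their value. Their Cd36 null libraries spread less, but both genes passed the filter only through those libraries. Ifit2 and Bst2, also low, spread more among the Cd36 null libraries (8.52 to 17.2 and 11.7 to 24.1) than in WT (3.08 to 5.76 and 7.18 to 12.5).

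**Figure D1:**
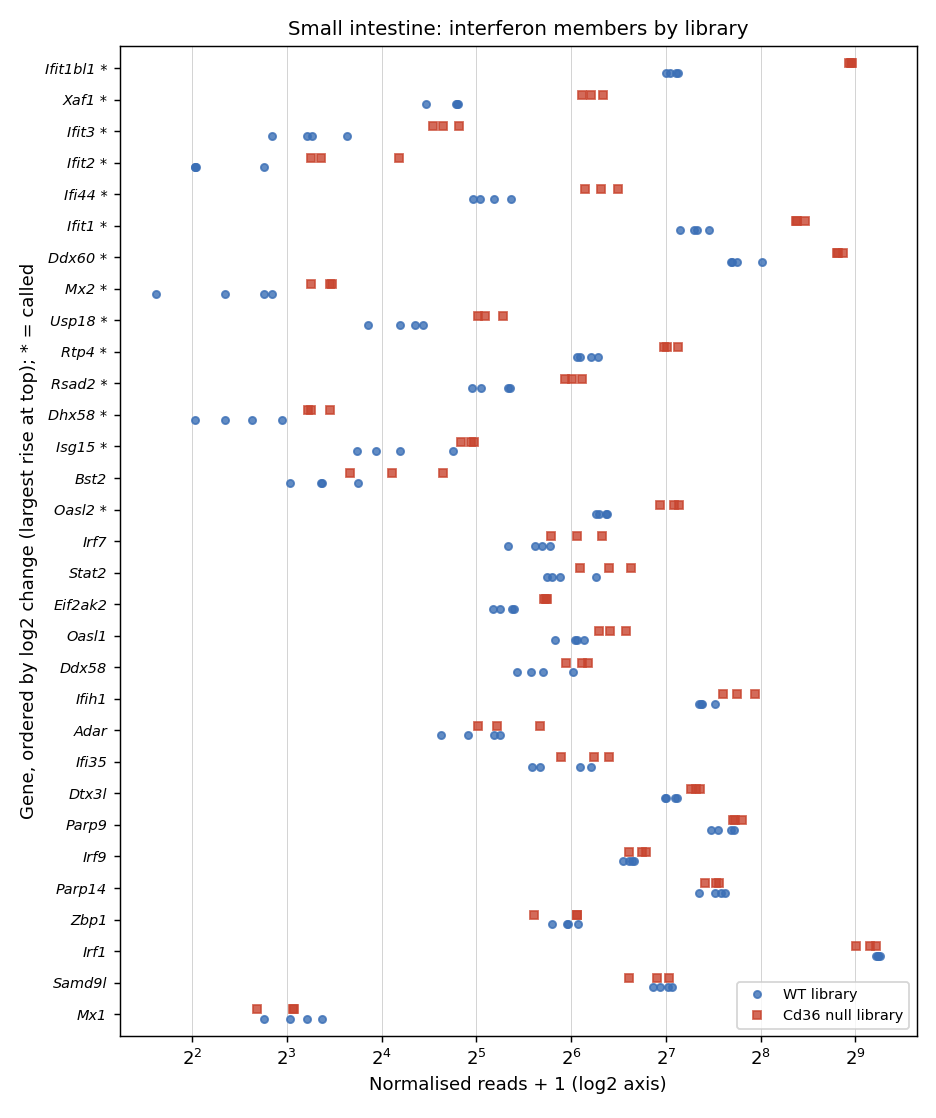
Normalised reads + 1 (log2 axis) of the 31 interferon genes tested in the small intestine, 1 point per library (4 WT, 3 Cd36 null), ordered by the difference. An asterisk marks the 14 called genes, whose Cd36 null libraries all lie above the WT libraries; the 5 genes at the bottom have differences below zero.

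The IFIT family, proteins with tetratricopeptide repeats that bind viral RNA lacking the host's cap methylation, was called in 4 of its 4 genes, with a median difference of 1.41 on the log2 scale. Ifit1bl1, a mouse relative of Ifit1, was at 137, 127, 139 and 131 normalised reads in WT and 489.5, 498 and 496 in Cd36 null libraries. The groups lay far apart, and the ratio was 3.70 (95% exact interval 3.35 to 4.09). Ifit1 was at 157, 174, 160.0 and 141 in WT and at 330.3, 353 and 332 in Cd36 null libraries, a ratio of 2.14 (1.94 to 2.36). Ifit3 had 8.64, 8.26, 11.4 and 6.16 in WT and 27.1, 22.4 and 24.1 in Cd36 null libraries, a ratio of 2.86 (1.89 to 4.42). Every null library was again above every WT library. Ifit2 was low, with 5.76, 3.10, 3.12 and 3.08 in WT and 17.2, 8.52 and 9.25 in Cd36 null libraries, and its interval was correspondingly wide, 1.67 to 6.11 around 3.11. It passed the filter only through its Cd36 null libraries. Ifit3 and its near copy Ifit3b share an identical run of 45 bases in the last 500 bases of their transcripts, shorter than the 100-base reads, whereas Ifit1 and Ifit1bl1 share at most 9.

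ISG15, a ubiquitin-like protein that is conjugated to other proteins, and USP18, the protease that removes it and also blocks the interferon receptor, were both called. Usp18 was at 17.3, 20.7, 13.5 and 19.5 normalised reads in WT and 38.0, 33.0 and 31.5 in Cd36 null libraries, a ratio of 1.93 (95% exact interval 1.41 to 2.65). Isg15 had 12.4 to 26.0 reads in WT libraries, all under the 27.7 to 30.5 of the Cd36 null libraries, so the groups were separate but close, with a ratio of 1.68 (1.22 to 2.34).

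Among the 5 sensors of foreign nucleic acid, 2 were called. Ddx60, a helicase linked to RIG-I signalling, was at 206, 257, 214 and 207 in WT and 447, 466 and 449.6 in Cd36 null libraries, a ratio of 2.06 (95% exact interval 1.89 to 2.24). Dhx58 encodes LGP2, a relative of RIG-I that regulates it. It had 6.72, 3.10, 5.20 and 4.10 in WT and 9.95, 8.52 and 8.33 in Cd36 null libraries, on 19 and 28 reads in all, and its interval began at 1.003. The call of Dhx58 was lost with a pseudocount of 5 and with limma and edgeR between the libraries, which compare the 2 preparations (adjusted p 0.234 and 0.227). Ifih1, which encodes the RNA sensor MDA5, did not reach the fold, though its Cd36 null libraries (194, 214 and 244) all lay above the WT libraries (162 to 183). Ddx58, which encodes RIG-I, had 42.3 to 64.0 in WT and 60.6 to 71.4 in Cd36 null libraries, which overlapped. Zbp1, a sensor of Z-form nucleic acid that can start necroptosis, was at 54.7 to 66.5 in WT and 48.0 to 66 in Cd36 null libraries, a difference of -0.04 on the log2 scale.

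None of the 4 signalling and transcription factors was called. Stat2 and Irf7, the factor that amplifies interferon production, differed by 0.45 and 0.46 on the log2 scale. The Irf7 libraries were 39.2 to 53.8 in WT and 54.3 to 79.6 in Cd36 null, without overlap, and those of Stat2 were 52.7 to 75.9 and 67.5 to 98.0, with overlap. Irf9, the DNA-binding partner of STAT2, had 92.4 to 100.2 in WT and 96.8 to 110.1 in Cd36 null libraries. Irf1, which acts in the interferon gamma response, was the most abundant of the 35 genes and differed by -0.11, with 595 to 614 against 512 to 597.

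The 2',5'-oligoadenylate synthetases make the messenger that activates RNase L, and their relatives OASL1 and OASL2 carry added ubiquitin-like domains. Only Oasl1 and Oasl2 passed the filter. Oasl2 was called, at 75.9 to 82.1 in WT and 122 to 139.5 in Cd36 null libraries, a ratio of 1.66 (95% exact interval 1.43 to 1.93). Oasl1 was at 56.1 to 69.2 and 77.7 to 95, without overlap but under the fold. Oas1a, Oas1g, Oas2 and Oas3 had between 1 and 16 reads in all the libraries of a genotype and were not compared.

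Of the 11 other antiviral effectors, 5 were called. Xaf1, which encodes a partner of the apoptosis inhibitor XIAP, was at 21.1, 26.8, 27.0 and 26.7 normalised reads in WT and 79.6, 68.2 and 73.1 in Cd36 null libraries, a ratio of 2.92 (95% exact interval 2.30 to 3.73). Ifi44 had 35.5, 40.3, 30.1 and 31.8 in WT and 69.7, 89.5 and 78.6 in Cd36 null libraries, a ratio of 2.28 (1.85 to 2.84). The Rtp4 values were 67.2, 73.3, 76.9 and 65.7 in WT and 126, 128 and 139 in Cd36 null libraries, a ratio of 1.85 (1.59 to 2.16). In these 3 genes the lowest null library was well above the highest WT library. Rsad2 encodes viperin, an enzyme that makes a chain-terminating nucleotide. It was at 39.4, 29.9, 32.2 and 40 in WT and 63.3, 68.2 and 60.1 in Cd36 null libraries, a ratio of 1.80 (1.44 to 2.24). Mx2, a dynamin-like GTPase, had 5.76, 6.20, 2.08 and 4.10 in WT and 9.95, 8.52 and 10.2 in Cd36 null libraries, on 18 and 30 reads, with an interval of 1.14 to 4.01. Its call was lost with limma and edgeR between the libraries, which compare the 2 preparations (adjusted p 0.125 and 0.114). Its relative Mx1 had 5.76 to 9.35 and 5.43 to 7.46, the lowest difference of the 31 genes at -0.15.

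The remaining effectors were not called. Bst2, which encodes the virus tether tetherin, differed by 0.76 on the log2 scale but overlapped between genotypes (7.18 to 12.5 and 11.7 to 24.1). Eif2ak2, which encodes the RNA-activated kinase PKR, was at 35.1 to 41.3 and 51.6 to 52.7, without overlap but under the fold. Adar, an editor of RNA, differed by 0.31, Ifi35 by 0.28 and Samd9l by -0.12, all with overlap. The ADP-ribosylation genes and their partner had 0 of 3 called. Dtx3l, a ubiquitin ligase, was at 126 to 138 and 153 to 163, without overlap, while its partner Parp9 and the related Parp14 differed by 0.14 and -0.02.

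Among other genes of the pathway, chosen by function, the receptors had 0 of 6 called. Ifnar1 was at 20.7 to 30.7 in WT and 21.3 to 30.9 in Cd36 null libraries, Ifnar2 at 53.7 to 63.6 and 60.1 to 72.4, and Ifnlr1 at 36.9 to 43.6 and 41.6 to 47.2. Jak1 (337 to 383 and 391 to 410) likewise stayed under the fold, as did Tyk2 (14.4 to 18.7 and 18.1 to 24.1) and Irf3, a factor that induces interferon genes (34.9 to 44.4 and 38.3 to 47.2). Of 75 pathway genes outside the 35 that passed the filter, 6 were called higher and 2 lower. Slfn5 differed most, with 8.26 to 16.4 in WT and 32.4 to 36.2 in Cd36 null libraries. Socs1, an inhibitor of the receptor kinases, was at 10.3 to 17.3 and 18.5 to 26.6. Ifi27, Parp11 and Apol9b were higher by 0.63, 0.60 and 0.60 on the log2 scale, and Ifit3b by 1.26 on 8 and 17 reads. Ifit3b passed the filter only through its Cd36 null libraries, at 5.32 to 5.55, with WT at 0 to 3.10. Nlrc5, the activator of MHC class I genes, and Ifi203 were the 2 called lower, with differences of -0.59 and -0.82. Of 21 interferon genes, 20 had no read in any library. A zero in a single library of 1000694 reads allows up to 3 reads, and a zero over all intestine libraries together likewise allows up to 3 in all. Ifng had 14 reads in WT and 2 in Cd36 null libraries.

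Other cell markers moved between the same preparations. Of 12 markers of T cells and intraepithelial lymphocytes, 6 were called lower in Cd36 null libraries (Cd247, Cd8b1, Cd7, Gzmb, Itgae and Lck), and their sum was 706 to 921 in WT and 597 to 627 in Cd36 null. Fewer cells of a type and less RNA per cell cannot be told apart in such samples. Markers of B and plasma cells summed to 42.3 to 77.0 and 50.1 to 52.5, with 0 called and Cd79a and Tnfrsf17 at 0, and those of macrophages and dendritic cells to 12.4 to 26.0 and 17.6 to 24.5, with 0 called. The plasmacytoid dendritic cell list had Ccr9 called lower and summed to 135 to 157 and 131 to 159.8. All 7 goblet cell markers were above zero and 6 did not overlap, with 0 called, and they summed to 7367 to 7662 in WT and 8746 to 8935 in Cd36 null. The markers of the proximal region summed to 4295 to 4574 and 4984 to 5132, with 0 called. The stromal marker Dcn and the Paneth cell marker Mmp7 were called lower, and of 7 ileal markers 2 were called higher and 1 lower. The part of these markers in the interferon result was not tested.

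The promoters of the genes that were higher hold, in part, the letters of the ISRE. The pattern GAAANNGAAA, or TTTCNNTTTC on the other strand, was searched in RefSeq promoters of 300 bases (assembly GRCm38.p6, the build also called mm10), from 250 before the start of the transcript to 50 after it, with overlapping matches counted. Of the 35 genes, 26 had a promoter in the table. The pattern was in 14 of these 26 (53.8%), beside 1079 of 27025 genes (3.99%). Among the genes called in the intestine it was in 6 of 10, and among those tested and not called in 5 of 13. It was in 17 of 185 (9.19%) of all genes called higher and 15 of 231 (6.49%) of those called lower. The 185 include the 10 called interferon genes, which supply 6 of the 17, so the 9.19% rests in part on the chosen list. The stretches of the 6 called genes are shown because they carry the pattern in the genes that differed, read in the direction of the gene, with each match in capitals and up to 30 bases on either side.
Ifit1bl1: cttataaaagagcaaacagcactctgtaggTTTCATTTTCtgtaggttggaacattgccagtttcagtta
Ifit1: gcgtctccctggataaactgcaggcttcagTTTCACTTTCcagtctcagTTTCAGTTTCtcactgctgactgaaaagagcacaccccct
Ifit3: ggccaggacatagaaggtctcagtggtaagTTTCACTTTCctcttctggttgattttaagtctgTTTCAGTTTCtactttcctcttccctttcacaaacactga
Ddx60: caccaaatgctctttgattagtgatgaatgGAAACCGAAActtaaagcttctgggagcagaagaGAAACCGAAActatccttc
Rsad2: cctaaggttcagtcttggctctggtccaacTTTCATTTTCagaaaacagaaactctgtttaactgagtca
Isg15: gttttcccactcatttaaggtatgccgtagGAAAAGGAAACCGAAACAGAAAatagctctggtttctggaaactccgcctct
They lie at chr19:34602033-34602102 (minus strand), chr19:34640755-34640843 (plus), chr19:34583343-34583446 (plus), chr8:61928004-61928086 (plus), chr12:26456533-26456602 (minus) and chr4:156200845-156200926 (minus). Ifit1, Ifit3 and Ddx60 hold 2 separate matches each, and Isg15 holds 3 that run into each other. The first match begins 104 bases before the start of Ifit1, 156 before that of Ifit3, 53 before that of Ddx60, 120 before that of Rsad2 and 78 before that of Isg15. Ifit1bl1 has several promoters in the table, and the one shown has its match 104 bases before the start.

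In isolated enterocytes, 2 of the interferon-stimulated genes rose in the Mfge8 null libraries and none fell, while the OAS family was higher and Ifit1 and Ifit3 were lower without passing the test. The test was limma on log2(normalised reads + 1) with Benjamini-Hochberg adjustment over 9432 genes, and 32 of the 35 genes passed the filter of at least 5 normalised reads in at least 4 libraries. Over all genes, 1.58% were higher and 1.63% lower at an adjusted p under 0.05. The median difference of the 32 genes was 0.10 on the log2 scale, against 0.00102 over all genes, and 21 lay above zero. At an unadjusted p under 0.05, 5 were higher and 0 lower, which is 15.6% of the 32 beside 15.9% of all genes. Nothing in the labels says that the libraries came from separate animals, so the p-values are against the spread of these libraries, which may be technical.

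Usp18 rose from 22.2, 19.8, 20.4 and 19.9 normalised reads in WT to 44.1, 42.7, 41.0, 37.5 and 54.1 in Mfge8 null libraries. The WT libraries were nearly level, at 20.6 ± 1.14 (SD, n = 4), and every null library was above them, at 43.9 ± 6.24 (SD, n = 5). The difference was 1.05 on the log2 scale (SE 0.202, limma adjusted p 0.00791). Zbp1 rose from 11.7, 18.7, 22.0 and 28.8 in WT to 69.5, 34.0, 49.9, 47.1 and 64.0 in Mfge8 null libraries. Its libraries spread more, at 20.3 ± 7.10 (SD, n = 4) and 52.9 ± 14.1 (SD, n = 5), but did not overlap, and it differed by 1.36 (SE 0.274, limma adjusted p 0.0104). The exact 2-sided permutation p over the 126 possible labellings was 0.007937 for each, unadjusted, the smallest that this number allows. Oas1a, which missed the limma threshold, had the same value. The permutation used the values by which limma had picked Usp18 and Zbp1, so it adds no separate support. Leaving out any 1 library kept both calls. Without null 3 and null 5, the most ileal libraries by their regional markers, neither passed, with a limma adjusted p of 0.0716 for Usp18 and 0.0924 for Zbp1, while the differences were nearly as large, at 0.98 and 1.27 on the log2 scale, with 3 null libraries left.

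All 5 OAS genes that passed the filter were above zero, with a median of 0.71 on the log2 scale, although none passed the test. Under each of the 20 alternatives tried none went below zero, but these reuse the same libraries and add no separate support. Oas1a had 23.4, 33.3, 24.3 and 21.8 in WT and 34.3, 42.7, 42.0, 43.9 and 48.4 in Mfge8 null libraries, without overlap, for a difference of 0.71 (SE 0.209, limma adjusted p 0.0838). With Usp18 and Zbp1 it was 1 of 3 of the 32 genes whose groups did not overlap, beside 6.42% of all genes in either direction. Oas3 had 14.0, 16.6, 34.5 and 26.8 in WT and 28.4, 31.8, 43.0, 45 and 61.5 in Mfge8 null libraries, where WT 3 reached into the null range (limma adjusted p 0.129). Oasl1 had 45.6, 69.7, 69.0 and 50.6 in WT and 77.4, 59.2, 89.9, 114 and 109 in Mfge8 null libraries (limma adjusted p 0.172). Only null 2 lay within the WT range. Oas1g took separate levels among the null libraries, at 40.2, 9.87, 12, 48.2 and 52.5, against 16.4, 17.7, 21.2 and 5.96 in WT, and differed by 0.87 (SE 0.486, limma adjusted p 0.406). Oasl2 differed by 0.34 (limma adjusted p 0.498), and Oas2, with 13 and 23 reads, was not tested.

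Oas1a and Oas1g are close copies. The last 500 bases of their transcripts share an identical run of 146 bases, longer than the 100-base reads, so their split between the genes is uncertain. Their promoters also share the ISRE-like stretch, shown here up to the start of each transcript with the 2 overlapping matches in capitals.
Oas1a: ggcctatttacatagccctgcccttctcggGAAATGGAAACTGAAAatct
Oas1g: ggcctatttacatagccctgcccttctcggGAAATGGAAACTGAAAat
The stretches are at chr5:120907526-120907575 and chr5:120887614-120887661, both on the minus strand. Both genes, with the other 4 of the OAS family, lie on chromosome 5, which also holds Cd36 at a distance of 97.1 to 103 Mb. Irf7 is the sole gene of the 35 on chromosome 7 with Mfge8, 62.1 Mb away, and none of the 35 lies within 10 Mb of either targeted gene. Isg20, an interferon-stimulated exonuclease gene outside the 35, lies 0.22 Mb from Mfge8 and was too low to test, at 2.67 ± 1.65 (SD, n = 4) and 2.75 ± 1.24 (SD, n = 5).

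Of the 3 IFIT genes tested in enterocytes, Ifit1 and Ifit3 were below zero and Ifit1bl1 above it, and none passed. Ifit3 had 31.6, 31.2, 26.7 and 29.8 in WT and 32.3, 16.4, 11, 18.2 and 24.6 in Mfge8 null libraries, a difference of -0.60 (SE 0.284, limma adjusted p 0.316). All of its null libraries but null 1 lay under the WT range. Ifit1 had 73.7, 141, 115 and 116 in WT and 127, 41.7, 60.9, 101 and 80.4 in Mfge8 null libraries, a difference of -0.50 (SE 0.277, limma adjusted p 0.401). Under each of 20 alternatives, which reuse the same libraries, both stayed below zero and did not pass. Ifit1bl1 was at 119 ± 37.8 (SD, n = 4) and 157 ± 84.0 (SD, n = 5), with an adjusted p of 0.818 by limma. Ifit2, at 10 and 15 reads, was not tested.

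The other 22 tested genes also missed the threshold, with limma adjusted p of 0.419 to 0.977. Xaf1, Ifi44 and Bst2 were the highest of them, at 0.67, 0.73 and 0.52 on the log2 scale, and the lowest was Samd9l at -0.28. Isg15 was at 341 ± 53.6 (SD, n = 4) in WT and 370.2 ± 111 (SD, n = 5) in Mfge8 null libraries, and Irf7 at 232 ± 18.5 and 271 ± 59.4. Stat2 and Irf9 differed by 0.07 and 0.06, and Irf1 by -0.16. Mx2, the third gene under the filter, had 17 and 12 reads.

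**Figure D2:**
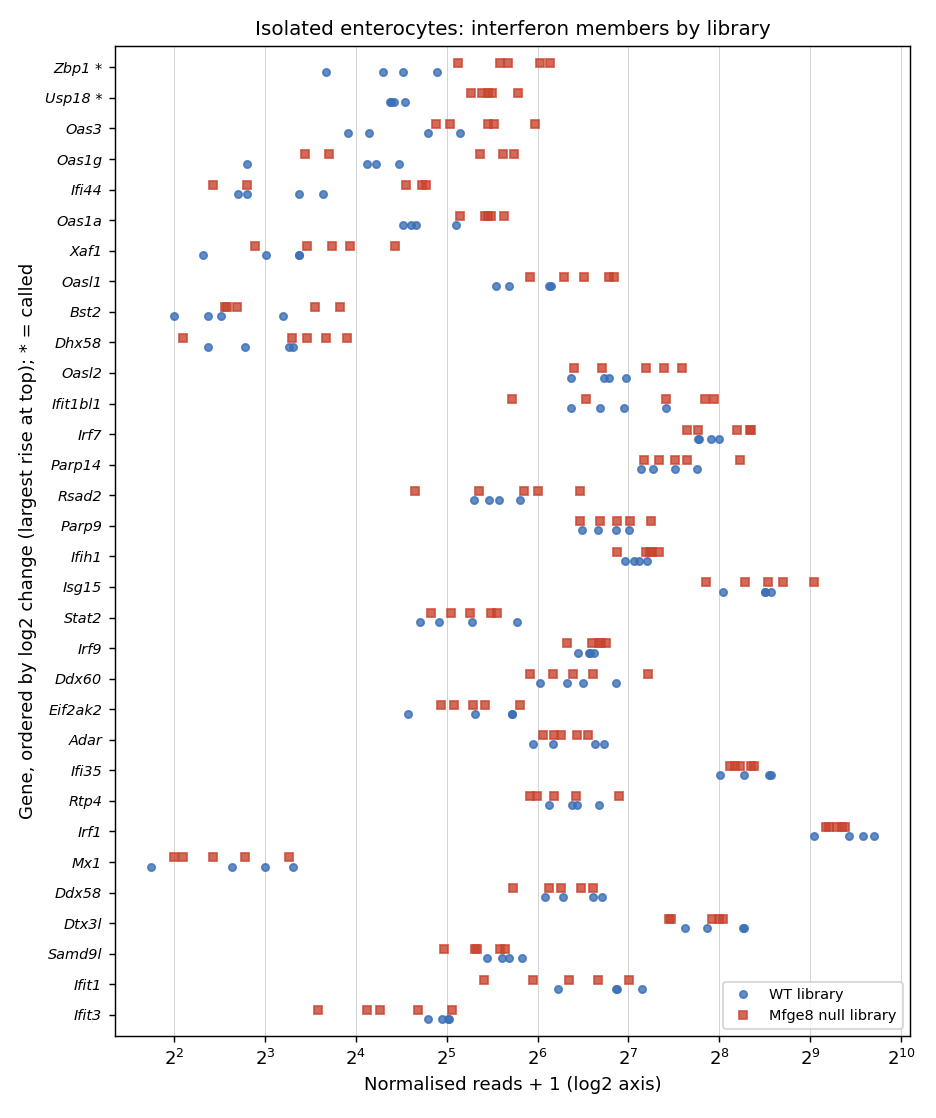
Normalised reads + 1 (log2 axis) of the 32 interferon genes tested in isolated enterocytes, 1 point per library (4 WT, 5 Mfge8 null), ordered by the difference. Asterisks mark Zbp1 and Usp18, which passed the test; most other genes overlap, Oas1g has null libraries within and above the WT range, and Ifi44 has them below, within and above it.

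The Mfge8 null libraries differed among themselves in the level of these genes. The median deviation of the 32 genes from the WT mean was 0.37 in null 1, 0.25 in null 4 and 0.19 in null 5 but -0.08 in null 3 and -0.24 in null 2, on the log2 scale. Null 2 was the lowest null library for 17 of the 32 genes (53.1%, beside 20.6% of all genes) and the highest for 0, and null 1 and null 5 were each the highest for 13. Across null libraries the genes had a median coefficient of variation of 28.3%, beside 24.4% over all genes, and across WT libraries 20.6%, beside 23.2%. Ifi44 varied most in the null group (63.9%) and Irf1 least (6.43%). In the intestine the 3 Cd36 null libraries had medians of 0.57, 0.68 and 0.62. The WT libraries ranged from -0.04 to 0.04, and these medians again include Ifit2, Mx2 and Dhx58. The coefficient of variation there had a median of 11.3% for WT and 9.41% for Cd36 null, beside 15.0% and 13.7% over all genes.

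**Figure D3:**
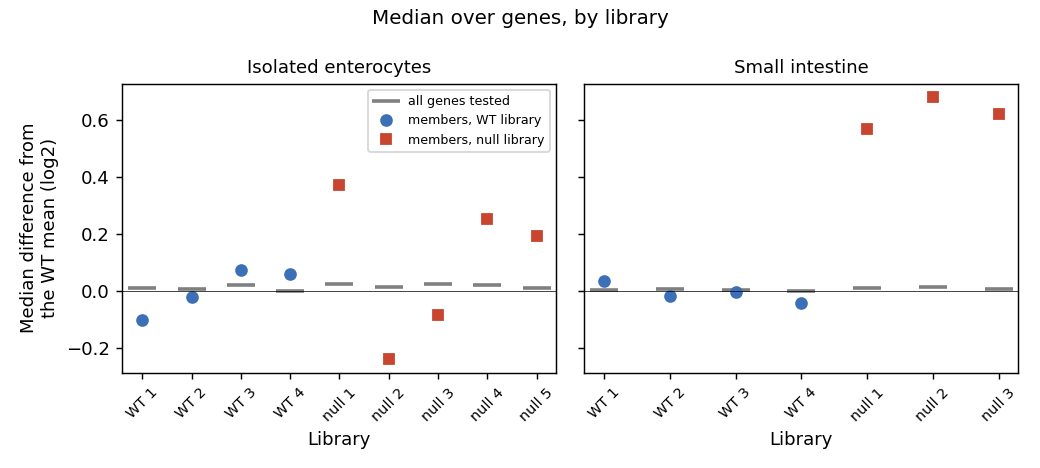
Median difference from the WT mean (log2) over the tested interferon genes in each library (circles WT, squares null; 32 genes in enterocytes, 31 in the intestine), with the same over all tested genes as a grey bar. The Mfge8 null libraries range from -0.24 to 0.37, on both sides of zero, and the Cd36 null libraries from 0.57 to 0.68.

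Pathway genes around the 35 did not pass the test in enterocytes. Of 72 tested, 0 were called by limma, edgeR or DESeq2, and at an unadjusted p under 0.05 limma had 10 higher and 4 lower (19.4%, beside 15.9% of all genes). The receptor genes Ifnar1, at 42.4 ± 11.8 (SD, n = 4) and 49.4 ± 10.7 (SD, n = 5), and Ifnlr1, at 46.9 ± 13.9 and 54.3 ± 12.3, differed by 0.23 each, and Ifnar2 by -0.53 (limma adjusted p 0.237). Jak1 and Tyk2 differed by 0.21 and 0.25, and Irf3 by -0.26. Socs1, at 27.6 ± 9.94 and 49.0 ± 7.40, differed by 0.88 (limma adjusted p 0.0927). Of 21 interferon genes 20 again had no read, and Ifng had 3 and 10 reads.

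Lymphocyte markers were higher in the same Mfge8 null libraries. All 12 markers of T cells and intraepithelial lymphocytes were above zero, with a sum of 1162 to 3472 normalised reads in WT and 3211 to 7510.3 in Mfge8 null libraries; limma called 0 of them, with 9 at an unadjusted p under 0.05, edgeR called 0, and DESeq2 called 3 (Cd7, Cd8a and Gzma). Markers of B and plasma cells summed to 19.9 to 128 and 208 to 528, with Jchain called higher and Cd79a at 0. Those of macrophages and dendritic cells summed to 49.4 to 91.5 and 34.0 to 132, those of plasmacytoid dendritic cells to 152 to 285 and 130.4 to 317, and those of stroma, endothelium and muscle to 10.2 to 19.8 and 7.50 to 23.0, with Col1a1, Cdh5 and Myh11 at 0. The score of proximal minus ileal markers was 1.65, 0.485, 0.711 and -0.733 in the WT libraries and -0.653, 0.617, -1.13, 1.31 and -2.26 in the Mfge8 null libraries, which overlapped. Of the regional markers Onecut2 was called lower and Slc51b higher. With the score as a covariate both calls remained. The part of the lymphocyte markers in the result for Usp18 and Zbp1 was not tested.

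Set side by side, the experiments shared 1 call. Of the 29 genes tested in both, Usp18 was called in both, Zbp1 in enterocytes, and 11 in the intestine. A call is a limma test in enterocytes and an untested fold rule in the intestine. Of the 12 intestine calls that were tested in enterocytes, 9 were above zero there. Beside them, 21 of the 32 interferon genes tested in enterocytes and 4728 of all 9432 genes were above zero. The exceptions were Ifit1, Ifit3 and Rtp4, at -0.50, -0.60 and -0.12 on the log2 scale in enterocytes and 1.10, 1.43 and 0.88 in the intestine. Zbp1 went the other way, at 1.36 and -0.04. No test of these differences was made, because the tables were normalised separately. Genotype, sample type, RNA kit and the presence of Xist reads differ together and cannot be told apart.

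**Figure D4:**
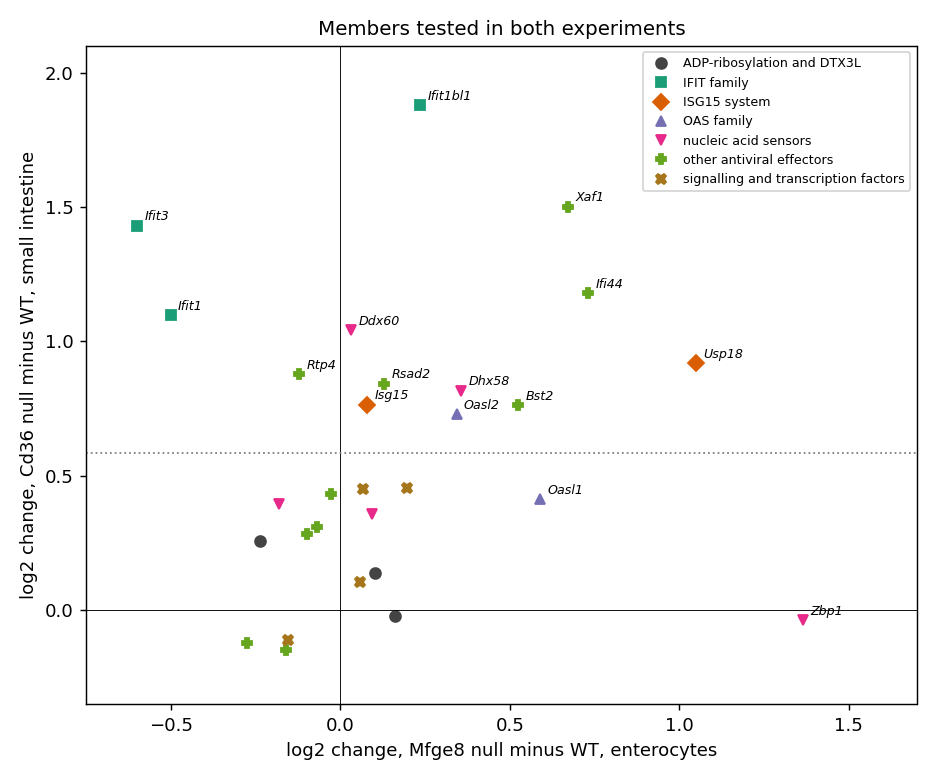
Difference of each of the 29 genes tested in both experiments (log2), Mfge8 null minus WT enterocytes on the x axis and Cd36 null minus WT small intestine on the y axis, by role; the dotted line marks 1.5-fold in the intestine. Usp18 is high on both axes, Zbp1 only on the x axis, and Ifit1 and Ifit3 lie to the left of zero and well above the line; Bst2 lies above the line but its libraries overlapped.

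The genes did not rank alike in the WT libraries of the sample types. In CPM (reads scaled to a common library total), which needs no length correction for 3' tags, Irf1 ranked first of the 35 in both sets of WT libraries, at 381 in enterocytes and 680.0 in the intestine. Isg15 was second in enterocytes, at 185 CPM, and 25th in the intestine, at 19.7. Oas1a (13.9 and 0.849), Oas1g (8.19 and 0.294) and Oas3 (12.4 and 1.68) were likewise higher in enterocytes. Ddx60 (47.1 and 249), Samd9l (26.7 and 141), Zbp1 (11.1 and 68.7), Xaf1 (4 and 28.6) and Ifi44 (4.37 and 38.8) were higher in the intestine. The sample type and the experiment cannot be told apart here, and no test was made.

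**Figure D5:**
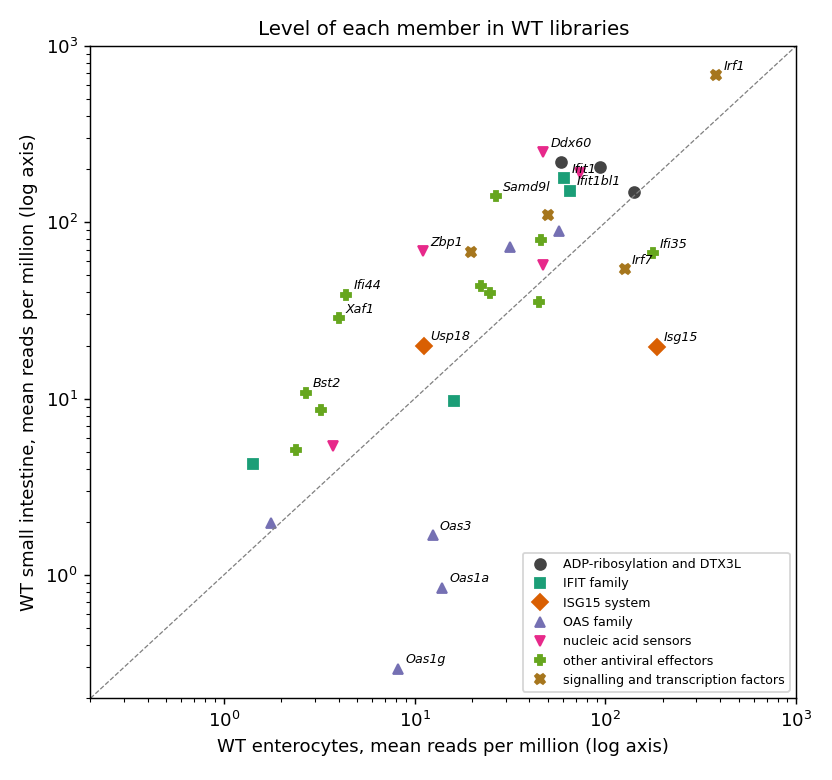
Mean level of each of the 35 genes in the 4 WT enterocyte libraries (x axis) and the 4 WT small intestine libraries (y axis), in CPM (the reads per library scaled to a common total) on log axes, coloured by role; the dashed line marks equal levels. Isg15, Oas1a, Oas1g and Oas3 lie far below the line and Ddx60, Zbp1, Xaf1 and Ifi44 far above it.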

How the data were processed

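Per the labels' protocols, the 16 libraries came from a forward 3' tag method with a UMI module and were read single-end over 100 bases, so a transcript gives about 1 read near its polyadenylated end. Trimmomatic 0.38.1, HISAT2 2.1.0, HTSeq 0.91, DESeq2 2.11.40 and mm10 are named per the submitters' processing notes; order, settings, UMI use and strand of the counting are not given in the sources used here. For each experiment the authors deposited a table of normalised signal. Its values are whole multiples (100% of values, to within 1e-06) of the smallest value in the same library, that is, reads divided by 1 size factor, which gave the reads back. For WT 4 and null 3 of the enterocytes that factor is so near 1 that this is less certain. Intervals, and the floor of 3 reads, cover counting error only, since reads need not be independent molecules.

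Groups and replicate numbers come from the titles and genotype labels. Enterocytes were tested with limma 3.58.1 (R 4.3.3) with a trend on log2(value + 1), which understates the change of low genes, at an adjusted p of 0.05. The intestine was compared by the 1.5-fold rule without a test; low genes can pass that rule by counting noise, so each called ratio has its exact interval. Alternatives were edgeR 4.0.16 and DESeq2 1.42.0 on the recovered reads, other scalings, filters and pseudocounts, a replicate block and left-out libraries. The scripts were tested on simulated data. The genes and lists were chosen with earlier results of these data known. Values in every library are given for the 8 genes with the smallest unadjusted p in enterocytes and at most 12 called in the intestine; a fixed set of pathway genes is named, with any that was called, and 1 gene of that set is not reported here.

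Exons of 13 of the 35 genes overlap those of another gene in GENCODE vM21 (10 on the opposite strand); Adar and Ifi35 share most, 16.8% of their exonic bases, with Chrnb2 and Gm11626. Reads of such pairs cannot be told apart without strand.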

Additional observations from a re-analysis of the deposited data

Results flagged for a closer look

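In 5 of 95 groups of 4 or 5 libraries of a single interferon gene, 1 library lay apart from the others by Dixon's criterion, the gap to its neighbour divided by the range; chance gives about 5%. In WT enterocytes Isg15 was low in WT 1 (0.836 of the range). In the WT intestine Ifit2 was high in WT 1 (0.986), Xaf1 low in WT 1 (0.943), Ddx60 high in WT 2 (0.835) and Ifih1 high in WT 4 (0.858). In the 3 of these that were called in the intestine, the Cd36 null libraries lay above the library that stood apart, which the rule for a call requires.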

How the results depend on the processing

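Of the 35 interferon genes, 2 were called in enterocytes under every alternative (2 to 2 when any 1 library was left out) except without null 3 and null 5, where 0 were called, with differences of 0.98 for Usp18 and 1.27 for Zbp1 on the log2 scale, against 1.05 and 1.36. The count over all genes, 303, moved to 184 with the regional score as a covariate, to 116 without null 3 and null 5, and to between 140 and 388 when 1 library was left out (140 without WT 1, 173 without WT 2, 185 without null 3, 199 without null 5). In the intestine 14 genes became 8 at a fold of 2, 18 at the looser fold tried, 13 with a pseudocount of 5, 11 with a minimum of 20 normalised reads and 14 to 16 when 1 library was left out. The count over all genes, 538, moved to 354 with a pseudocount of 5, 241 with a minimum of 20, 994 at the looser fold, 191 at a fold of 2, and 897 when overlap was allowed, an alternative chosen after seeing the data; it was 604 to 776 when 1 library was left out. limma and edgeR between the libraries, which compare the 2 preparations, called 16 each, with Oasl1, Irf7, Stat2 and Ifih1 added and the low genes Dhx58 and Mx2 lost. No called gene changed direction. With the replicate number as a block, 2 interferon genes and 229 of all genes were called in enterocytes and 15 and 643 in the intestine, where Isg15 did not pass (limma adjusted p 0.0649); same-numbered enterocyte libraries had correlations of -0.12 to 0.21, so the numbers do not pair them. TMM scaling moved the median of all genes by less than 0.1. Depth limits Ifit2, Mx2, Dhx58 and the 4 OAS genes not compared in the intestine.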
